A study of Saccharomyces cerevisiae with 24 samples.

Results

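The 32 genes described here make ergosterol, the main sterol of yeast membranes, or sense, esterify and carry it. They were taken from a list of gene symbols matched to the platform table of the arrays, and all 32 were measured, each by 1 probe set, among 5449 genes in all. The list holds 9 genes of the early mevalonate part, 14 of the late sterol part, 3 electron donors and helpers (NCP1, CYB5 and ERG29), 2 sterol-sensing transcription factors (UPC2 and ECM22), 2 sterol acyltransferases (ARE1 and ARE2) and 2 oxysterol-binding proteins (HES1 and KES1).

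Total RNA of Saccharomyces cerevisiae was measured on 24 Affymetrix arrays, 3 for each of 8 groups. The snf1Δtor1Δ, snf1Δ, tor1Δ and wild-type strains were each grown in an ammonia-limited medium with 1 g/L ammonium sulfate (N-lim) and in a glucose-limited medium with 10 g/L glucose (C-lim). All cultures were aerobic chemostats at 30 °C, pH 5.0 and a dilution rate of 0.1 per hour, and were sampled at steady state from 1.2 L vessels that held 0.5 L of culture. SNF1 encodes a kinase of the AMP-activated family, which cells need to grow on carbon sources other than glucose, and TOR1 a kinase subunit of TOR complex 1, which ties growth to nutrients. The series design calls the 3 arrays of a group biological replicates, and the labels give neither the strain background nor the mating type nor the way the genes were deleted. P-values therefore measure the spread between these arrays.

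Ergosterol synthesis starts from acetyl-CoA. The early part runs through mevalonate, made by HMG-CoA reductase, to farnesyl diphosphate, which also feeds haem A, ubiquinone, dolichol and protein prenylation. The late part starts with squalene synthase and turns squalene into ergosterol in steps of which several need molecular oxygen and some need haem. Upc2 and Ecm22 are known to bind the promoters of late genes and to activate them when sterols are scarce, and surplus sterol is stored as esters in lipid droplets.

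The deposited values are on a log2 scale. Over all genes the lowest was 2.02 and the highest 14.31, the medians of the arrays lay from 7.79 to 7.97, and the correlation of 2 arrays of a group over genes was 0.993 to 0.999. Values near log2 2 are the floor of the scale, and group means under log2 3 are called the floor here. A mean is given with the SD over the 3 arrays of a group, and a change is a difference of log2 group means with the standard error of the fit. Levels of different genes come from different probe sets and are not compared. Each array measured RNA of a whole culture, so fewer cells with a transcript and less transcript per cell cannot be told apart. SNF1 averaged 2.15 ± 0.0019 in snf1Δ and 8.75 ± 0.044 in wild type under C-lim, at least 53.7-fold lower in snf1Δ, and at least 59.8-fold lower under N-lim. TOR1 averaged 2.27 ± 0.0011 in tor1Δ and 6.94 ± 0.15 in wild type under C-lim (SD, n = 3 each), at least 15.4-fold lower in tor1Δ, and at least 29.1-fold lower under N-lim. Both genes were at the floor in snf1Δtor1Δ.

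**Figure D1:**
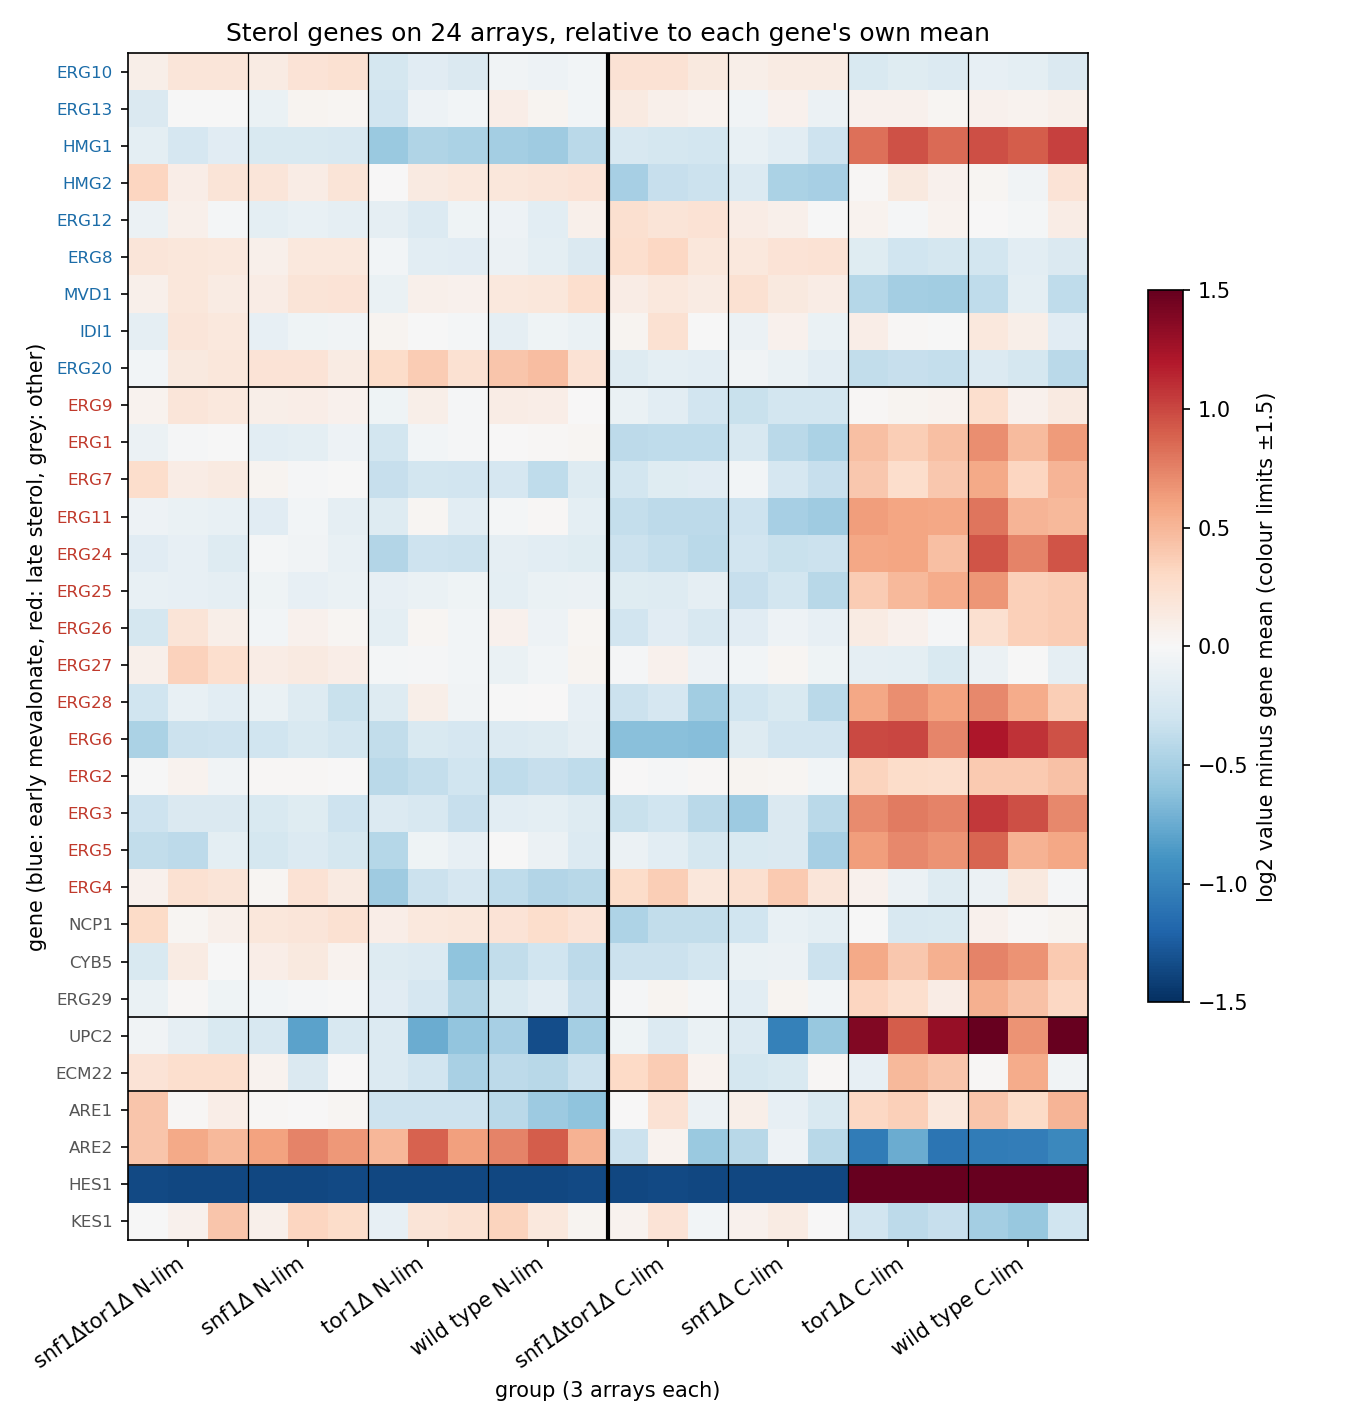
Log2 value of each of the 32 genes (rows, in pathway order) on each of the 24 arrays (columns, 3 per group), minus the gene's mean over all arrays, with colours that stop at 1.5 in either direction. Most late genes are red on the 6 C-lim arrays of tor1Δ and wild type, where the mean of all 14 lies at 0.39 and 0.50, and pale or blue elsewhere. ERG9, ERG27 and ERG4 do not follow this, and the early genes other than HMG1 show no such block.

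A single contrast ran through most of the late genes. They stood highest on the 6 C-lim arrays of the strains that carry SNF1, tor1Δ and wild type, and lower on the other 18 arrays, that is under N-lim in any strain and under C-lim without SNF1. This grouping was chosen after the values were seen and is given as a description. For 14 of the 32 genes all 6 of these arrays lay above all 18 others, as did 9.14% of all genes, and for 4 all 6 lay below, as did 15.8% of all genes. Of the 14 genes above, 9 were late sterol genes (ERG1, ERG11, ERG24, ERG25, ERG28, ERG6, ERG2, ERG3 and ERG5), 1 was early (HMG1), and the other 4 were CYB5, ERG29, UPC2 and HES1. The 4 genes below were MVD1, ERG20, ARE2 and KES1. The highest group mean was that of tor1Δ under C-lim for 5 genes and that of wild type under C-lim for 14. The shares of all genes with their highest mean there were not counted. Some of these genes, such as ECM22 and ERG9, overlapped between the 6 and the 18 arrays. ERG3, the sterol C-5 desaturase, for instance had a lowest value of 12.05, a median of 12.10 and a highest value of 12.40 on the 6 arrays, against 10.81, 11.11 and 11.20 on the 18. ARE2 lay the other way, with 7.82, 7.87 and 8.17 on the 6 arrays, against 8.36, 9.42 and 9.82 on the 18.

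The first comparison set N-lim against C-lim in wild type. Of the 32 genes, 25 passed limma's test at an adjusted p under 0.05, where 67.2% of all genes did, so the count lies only a little above the background. The direction was less even, since 19 genes were lower and 6 higher under N-lim, while 25.7% of all genes were lower and 41.5% higher. Centring each array on its median shifted the median of all genes by -0.106 in this comparison, which gave 22 genes lower and 4 higher, against 37.1% of all genes lower and 33.9% higher.

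The late sterol part was lower in transcript level under N-lim in wild type along nearly its whole length. Of its 14 genes, 12 fell and none rose by limma, also at an unadjusted p under 0.05, and the median change of the 14 was -0.62, beside 0.078 for all genes. ERG6, the sterol methyltransferase that sets the fungal side chain apart from that of cholesterol, had 11.57, 11.58 and 11.64 under N-lim and 12.995, 12.86 and 12.74 under C-lim. The groups lay far apart, with a log2 change of -1.26 ± 0.069 (SE, n = 3 each, limma adjusted p = 1.17e-11). ERG3 had 11.19, 11.20 and 11.15 under N-lim and 12.40, 12.32 and 12.06 under C-lim, a change of -1.08 ± 0.077. ERG24, the C-14 reductase, had 9.87, 9.86 and 9.82 under N-lim and 10.96, 10.76 and 10.96 under C-lim, a change of -1.04 ± 0.052. In each of these 3 genes every N-lim array lay below every C-lim array, as for 25.8% of all genes, with 67.4% apart in either direction. The spread among the C-lim arrays was the wider one. The other 9 changes ran from -0.78 for ERG2, the C-8 isomerase, to -0.32 for ERG26, the C-3 decarboxylating dehydrogenase. Between these stood ERG5 (-0.76), ERG7 (-0.75), ERG11 (-0.65), ERG1 (-0.59), ERG28 (-0.59), ERG25 (-0.58) and ERG4 (-0.43). They encode the C-22 desaturase, lanosterol synthase, the haem-dependent C-14 demethylase, squalene epoxidase, a scaffold of the C-4 demethylation complex, the C-4 methyl oxidase and the last reductase of the pathway. ERG9, squalene synthase at the branch point, had a change of -0.074 ± 0.054 and ERG27, the 3-keto reductase, one of 0.042 ± 0.056. Neither passed the test, but ERG9 was called lower after median-centring (-0.18).

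The early mevalonate part behaved unevenly. Of its 9 genes 3 rose and 1 fell, where 41.5% of all genes rose and 25.7% fell, so the number called is not above the background. The median change of 0.067 was close to that of all genes, and single genes moved in opposite directions. The gene that fell was HMG1, the main HMG-CoA reductase of aerobic cells, with 9.35, 9.33 and 9.45 under N-lim and 10.83, 10.77 and 10.89 under C-lim, a change of -1.45 ± 0.051 (limma adjusted p = 2.01e-14). ERG20, farnesyl diphosphate synthase, rose, with 12.23, 12.28 and 12.03 under N-lim and 11.61, 11.55 and 11.42 under C-lim and a change of 0.66 ± 0.065. MVD1, mevalonate diphosphate decarboxylase, rose too, with 10.90, 10.91 and 11.002 under N-lim and 10.36, 10.59 and 10.37 under C-lim and a change of 0.50 ± 0.058. These 2 genes moved against the reductase, and in none of the 3 did the media overlap, nor in 67.4% of all genes. ERG10, acetoacetyl-CoA thiolase, was higher by 0.11, and this call was lost without wild-type C-lim replicate 11 (0.08) and after median-centring. The remaining 5 genes did not pass the test and lay between -0.12 and 0.13. They were ERG13 (HMG-CoA synthase), HMG2 (the second reductase), ERG12 (mevalonate kinase), ERG8 (phosphomevalonate kinase) and IDI1 (isopentenyl diphosphate isomerase). After median-centring ERG12 (-0.18) and IDI1 (-0.23) were called lower. Calls were also gained by HMG2 (0.20) and IDI1 (-0.22) without wild-type C-lim replicate 11, and by ERG12 (-0.14) without N-lim replicate 11.

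Among the helpers, CYB5, cytochrome b5, which passes electrons to the desaturation and demethylation steps, had 10.25, 10.32 and 10.23 under N-lim and 11.37, 11.30 and 11.01 under C-lim in wild type, a fall of 0.96 ± 0.11 on the log2 scale. ERG29, a protein of the C-4 demethylation step, changed by -0.67 ± 0.073. NCP1, the reductase that serves the cytochromes P450, lay apart the other way, higher by 0.18 ± 0.066, and this call was lost without wild-type C-lim replicate 10 (0.17) or N-lim replicate 10 (0.16) and after median-centring. The sterol-sensing factors fell as well. UPC2 had 5.25, 4.42 and 5.23 under N-lim and 7.65, 6.42 and 7.29 under C-lim, a change of -2.15 ± 0.28 (limma adjusted p = 1.91e-06). Its groups did not overlap, as in 67.4% of all genes, although its spread within groups was the widest of all 32 genes. ECM22 changed by -0.55 ± 0.15, and by -0.36 without wild-type C-lim replicate 10.

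Sterol storage and transport held the largest changes in both directions. ARE2, the acyltransferase that esterifies most sterol in aerobic cells, had 9.65, 9.82 and 9.43 under N-lim and 7.86, 7.87 and 7.94 under C-lim in wild type, a change of 1.74 ± 0.14 (limma adjusted p = 2.88e-09). ARE1, the second acyltransferase, had 5.58, 5.44 and 5.38 under N-lim and 6.40, 6.27 and 6.49 under C-lim, a change of -0.92 ± 0.10. The 2 enzymes of the same reaction therefore moved in opposite directions, each without overlap between the media, as in 67.4% of all genes. HES1, an oxysterol-binding protein, was at the floor under N-lim with 2.23, 2.22 and 2.24, against 8.37, 7.82 and 7.94 under C-lim, at least 32.9-fold lower under N-lim. KES1, its paralog and a carrier of sterol and phosphoinositide between membranes, had 9.19, 9.01 and 8.90 under N-lim and 8.34, 8.28 and 8.56 under C-lim, a change of 0.64 ± 0.12.

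**Figure D2:**
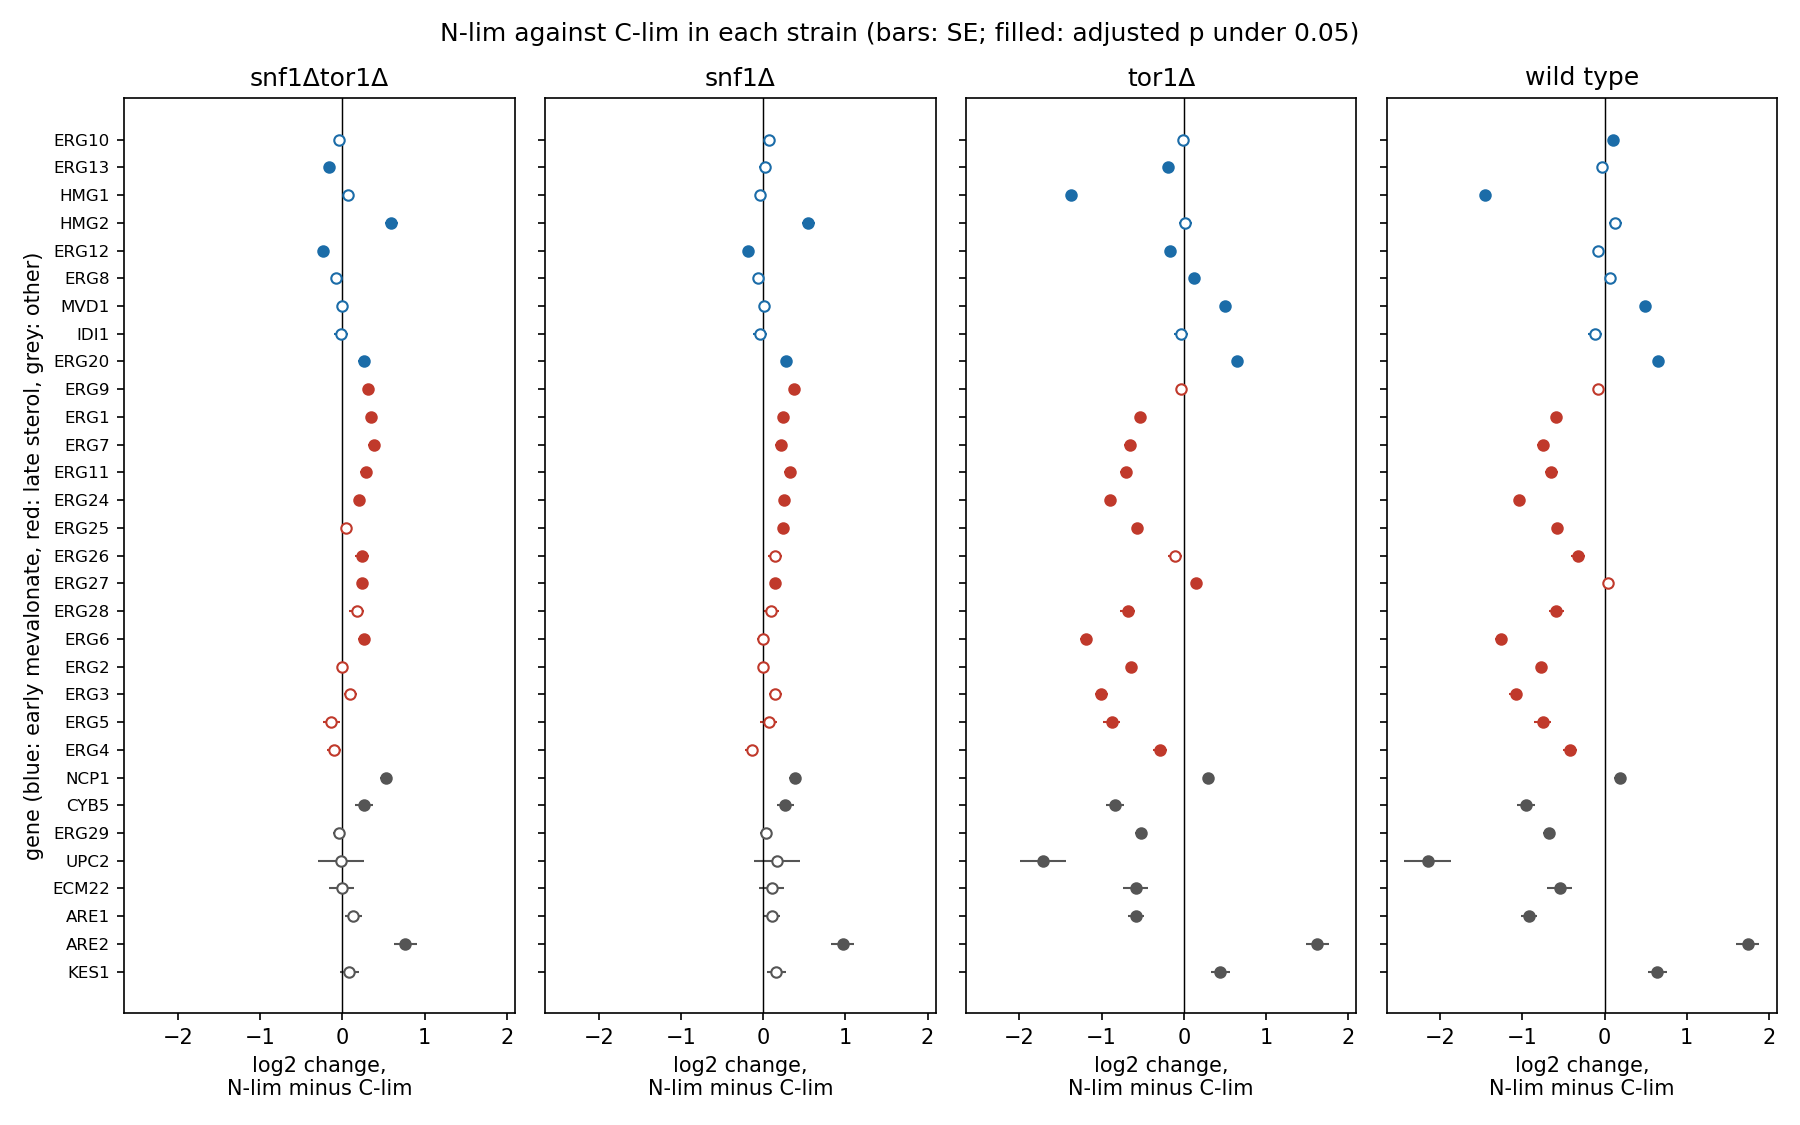
Log2 change of N-lim minus C-lim (x axis) for 31 genes (y axis, in pathway order) in snf1Δtor1Δ, snf1Δ, tor1Δ and wild type. Bars are standard errors and filled points passed an adjusted p of 0.05, and HES1 is left out because it was at the floor under N-lim. In tor1Δ and wild type the late genes other than ERG27 lie left of 0, and in the strains without SNF1 they lie near 0 or right of it, as for ERG6 with 0.26 in snf1Δtor1Δ and -1.26 in wild type.

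Without SNF1 this response to the medium was not seen. In snf1Δ 13 genes passed the test, where 55.4% of all genes did, 12 higher and 1 lower under N-lim, beside 32.4% and 23% of all genes. In snf1Δtor1Δ 15 passed, where 58.6% of all genes did, 13 higher and 2 lower, beside 35.3% and 23.2% of all genes. Of the 14 late genes 7 rose in snf1Δ, with a median of 0.14, and 8 rose in snf1Δtor1Δ, with a median of 0.22, beside 0.041 and 0.062 for all genes. None fell in either strain by limma, also at an unadjusted p under 0.05. The changes were small, the highest of the late genes being 0.37 for ERG9 in snf1Δ and 0.38 for ERG7 in snf1Δtor1Δ. ERG6, at -1.26 in wild type, had 11.49, 11.55 and 11.51 under N-lim and 11.58, 11.49 and 11.49 under C-lim in snf1Δ, values that overlapped. HMG1 was likewise without a called change in snf1Δ (-0.043 ± 0.051) and snf1Δtor1Δ (0.07 ± 0.051), and UPC2 changed by 0.17 ± 0.28 and -0.019 ± 0.28.

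Some genes answered to the medium in the absence of SNF1. HMG2 rose in snf1Δ, with 8.02, 7.95 and 8.04 under N-lim and 7.64, 7.37 and 7.35 under C-lim (change 0.55 ± 0.079), and by 0.60 in snf1Δtor1Δ. Its media lay apart in both strains, as did 64.7% of all genes in snf1Δ and 63.5% in snf1Δtor1Δ, while in wild type they overlapped. NCP1 rose by 0.38 in snf1Δ and 0.53 in snf1Δtor1Δ. ARE2 rose in every strain, by 0.76 in snf1Δtor1Δ, 0.97 in snf1Δ, 1.62 in tor1Δ and 1.74 in wild type. ERG20 rose in every strain too, by 0.26, 0.28, 0.65 and 0.66 in the same order. Several of the small changes lost their call when a single array was left out. A call could be lost without a smaller change, as for CYB5 in snf1Δ, at 0.27 and at 0.29 without N-lim replicate 11. In snf1Δ the call of ERG27 was lost without C-lim replicates 10 or 12 or N-lim replicates 9, 10 or 11, that of ERG7 without C-lim replicates 11 or 12 or N-lim replicate 9, and that of CYB5 without C-lim replicate 12 or N-lim replicates 9, 10 or 11. In snf1Δtor1Δ the call of ERG13 was lost without C-lim replicates 1, 2 or 3 or N-lim replicate 1, that of ERG26 without C-lim replicate 1 or N-lim replicates 2 or 3, and that of CYB5 without C-lim replicates 1, 2 or 3 or N-lim replicates 2 or 3. ERG12, which fell by 0.19 in snf1Δ, was the gene lower there.

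The difference in response was tested directly. For 24 of the 32 genes the change with the medium differed between snf1Δ and wild type at an adjusted p under 0.05, where 47.2% of all genes did. It was more positive in snf1Δ for 20 of them and more negative for 4, whereas 16.2% of all genes were more positive and 31% more negative. In snf1Δtor1Δ the numbers were 26, 21 and 5, beside 46.7%, 17.9% and 28.8% of all genes. Of the late genes 12 of 14 had a more positive response in snf1Δ and 13 of 14 in snf1Δtor1Δ, and none a more negative one, also at an unadjusted p under 0.05. ERG24 differed by 1.29 ± 0.074, ERG6 by 1.26 ± 0.098 and UPC2 by 2.32 ± 0.40 in snf1Δ. The 4 genes with a more negative response in snf1Δ were MVD1 (-0.49), ERG20 (-0.38), ARE2 (-0.78) and KES1 (-0.48). The call of KES1 was lost without wild-type C-lim replicate 10, wild-type N-lim replicate 9 or snf1Δ N-lim replicate 9. These comparisons share the wild-type arrays of both media.

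In tor1Δ the late genes were lower under N-lim, as in wild type. There 27 genes passed the test, where 64.9% of all genes did, 7 higher and 20 lower, beside 37.4% and 27.5% of all genes. Of the late genes 11 fell and ERG27 rose by 0.14. The call of ERG27 was lost without tor1Δ C-lim replicate 9 or any of the 3 tor1Δ N-lim arrays. The calls of ERG8, ERG13 and ERG12, at 0.12, -0.19 and -0.16, were lost without tor1Δ C-lim replicates 8 or 9 or N-lim replicate 9 (ERG8), without N-lim replicate 9 (ERG13) and without N-lim replicate 10 (ERG12). HMG1 had 9.31, 9.42 and 9.39 under N-lim and 10.69, 10.82 and 10.72 under C-lim in tor1Δ, a change of -1.37 ± 0.051, beside -1.45 ± 0.051 in wild type. The response differed between tor1Δ and wild type for 1 gene, where 0.973% of all genes did. This gene was HES1, which was at the floor under N-lim in both strains and under C-lim had 7.37, 7.25 and 7.37 in tor1Δ and 8.37, 7.82 and 7.94 in wild type. At an unadjusted p under 0.05 the count was 4, with ERG10, ERG2 and ARE1 besides HES1, where 11.9% of all genes passed.

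To set the early part against the late part, each gene's value was taken relative to its own mean over the 24 arrays and averaged over the 9 early and the 14 late genes. The early mean stayed between -0.078 and 0.059 in all 8 groups. The late mean was 0.41, 0.40 and 0.36 on the C-lim arrays of tor1Δ and 0.59, 0.46 and 0.46 on those of wild type, and between -0.23 and -0.06 as a group mean in the other 6 groups. The gap of early minus late was 0.11, 0.12 and 0.14 under N-lim and -0.56, -0.44 and -0.45 under C-lim in wild type, so that it changed by 0.61 with the medium. In tor1Δ it changed by 0.52. Without SNF1 it changed little and in the other direction, by -0.084 in snf1Δ and -0.12 in snf1Δtor1Δ. The values of the 2 media did not overlap in any of the 4 strains. Nearly the whole difference of the means came from the late genes, whose mean changed by -0.63 in wild type, against -0.025 for the early genes. The early mean averages opposite changes, from -1.45 for HMG1 to 0.66 for ERG20 in wild type, so it does not show that early genes were unchanged. Between strains under C-lim the gap differed from wild type by 0.73 in snf1Δtor1Δ, 0.68 in snf1Δ and 0.067 in tor1Δ, each without overlap with wild type. The value of tor1Δ was 0.028 without wild-type C-lim replicate 9. Under N-lim it differed by -0.0034, -0.0085 and -0.015 in the same order, and the strains overlapped. Within the early part HMG1 had the highest correlation with the late mean across the 24 arrays, at r = 0.95, while MVD1 and ERG20 had r = -0.85 and -0.59. These arrays fall into the groups of the design, so the r values describe the groups and have no p.

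**Figure D3:**
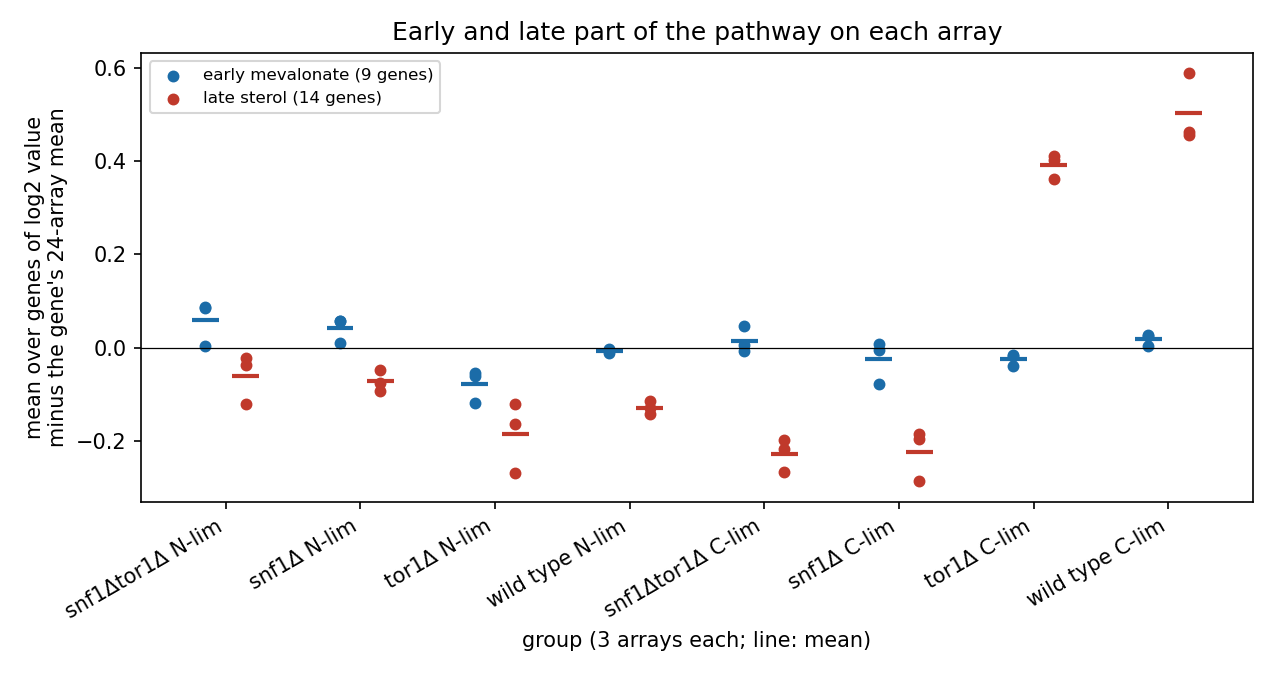
Mean log2 value relative to each gene's 24-array mean (y axis) of the 9 early mevalonate genes (blue) and the 14 late sterol genes (red) on each array of the 8 groups (x axis), with a line at each group's mean. The late mean of tor1Δ C-lim (0.39) and wild-type C-lim (0.50) stands above all other groups. The early mean stays near 0 throughout, although single early genes such as HMG1 and ERG20 moved in opposite directions.

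The deletion of SNF1 was then compared with wild type within each medium. Under C-lim 27 genes passed the test, where 62.1% of all genes did, 20 lower in snf1Δ and 7 higher, while 21.6% of all genes were lower and 40.5% higher. Of the 14 late genes 12 fell, with a median over the 14 of -0.83 beside 0.10 for all genes. This comparison shares the wild-type C-lim arrays with the comparison of media in wild type, so high values there enter both. ERG6 had 11.58, 11.49 and 11.49 in snf1Δ and 12.995, 12.86 and 12.74 in wild type, a change of -1.34 ± 0.069. ERG3 changed by -1.30 ± 0.077, ERG24 by -1.19 ± 0.052 and ERG11 by -1.04 ± 0.076, and the other 8 late genes that fell lay between -0.98 (ERG1) and -0.40 (ERG2). ERG9, without a called change between the media in wild type, fell by 0.44 ± 0.054 in snf1Δ. ERG4, the last step, was the late gene that rose, with 10.46, 10.62 and 10.40 in snf1Δ and 10.13, 10.37 and 10.21 in wild type. Its change of 0.26 was no longer called without wild-type C-lim replicate 9 (0.21) or snf1Δ C-lim replicate 11 (0.20), or after median-centring (0.21).

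In the early part both reductases fell in snf1Δ under C-lim. HMG1 had 9.75, 9.71 and 9.55 in snf1Δ and 10.83, 10.77 and 10.89 in wild type, a change of -1.16 ± 0.051 (limma adjusted p = 1.92e-12), and HMG2 changed by -0.45 ± 0.079. MVD1, ERG8 and ERG10 rose, by 0.46, 0.41 and 0.27. ERG20 rose by 0.19, a call lost without wild-type C-lim replicate 11 (0.13) or snf1Δ C-lim replicate 10 (0.16) and after median-centring (0.14). The reductases thus moved against MVD1, ERG8 and ERG10, and against ERG20 where its call held. UPC2 had 5.54, 4.73 and 5.18 in snf1Δ and 7.65, 6.42 and 7.29 in wild type, a change of -1.97 ± 0.28, while ECM22 at -0.33 ± 0.15 did not pass the test. All 3 helpers fell, CYB5 by 0.77, ERG29 by 0.48 and NCP1 by 0.23. HES1 was at the floor in snf1Δ, at least 32.9-fold lower than in wild type. ARE2 rose by 0.72 and KES1 by 0.52, and ARE1 fell by 0.49.

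Under N-lim the effect of the deletion was smaller and ran the other way in part of the genes. There 11 genes passed, where 31.1% of all genes did, 10 higher in snf1Δ and 1 lower, beside 14.1% and 17% of all genes. The genes that changed in both media with opposite signs were HMG1, ERG20, ERG7, ERG2, CYB5, ERG29 and ARE1. For genes chosen this way the difference of the responses passes the test almost by construction, so it adds no support. The share of all genes with opposite signs was not counted. HMG1 had 9.63, 9.64 and 9.62 in snf1Δ and 9.35, 9.33 and 9.45 in wild type, a rise of 0.25 ± 0.051. ERG2 had 11.84, 11.83 and 11.82 in snf1Δ and 11.44, 11.48 and 11.43 in wild type, a rise of 0.38 ± 0.034. ARE1 had 6.003, 5.98 and 6.02 in snf1Δ and 5.58, 5.44 and 5.38 in wild type, a rise of 0.54 ± 0.10. None of these 3 genes overlapped between the strains, nor did 51.2% of all genes. CYB5 had 10.73, 10.77 and 10.68 in snf1Δ and 10.25, 10.32 and 10.23 in wild type, and ERG7 9.54, 9.49 and 9.49 in snf1Δ and 9.26, 9.12 and 9.31 in wild type. ERG29 had 9.29, 9.30 and 9.32 in snf1Δ and 9.10, 9.16 and 8.98 in wild type. ERG20 fell to 12.01, 12.01 and 11.93 in snf1Δ, against 12.23, 12.28 and 12.03 in wild type. ERG4, ERG8 and ERG10 were higher in snf1Δ in both media, under N-lim by 0.54, 0.28 and 0.24. The calls of ERG20, ERG27 and ERG29 under N-lim were lost without any of several single arrays of either strain, among them each of the 3 snf1Δ arrays.

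**Figure D4:**
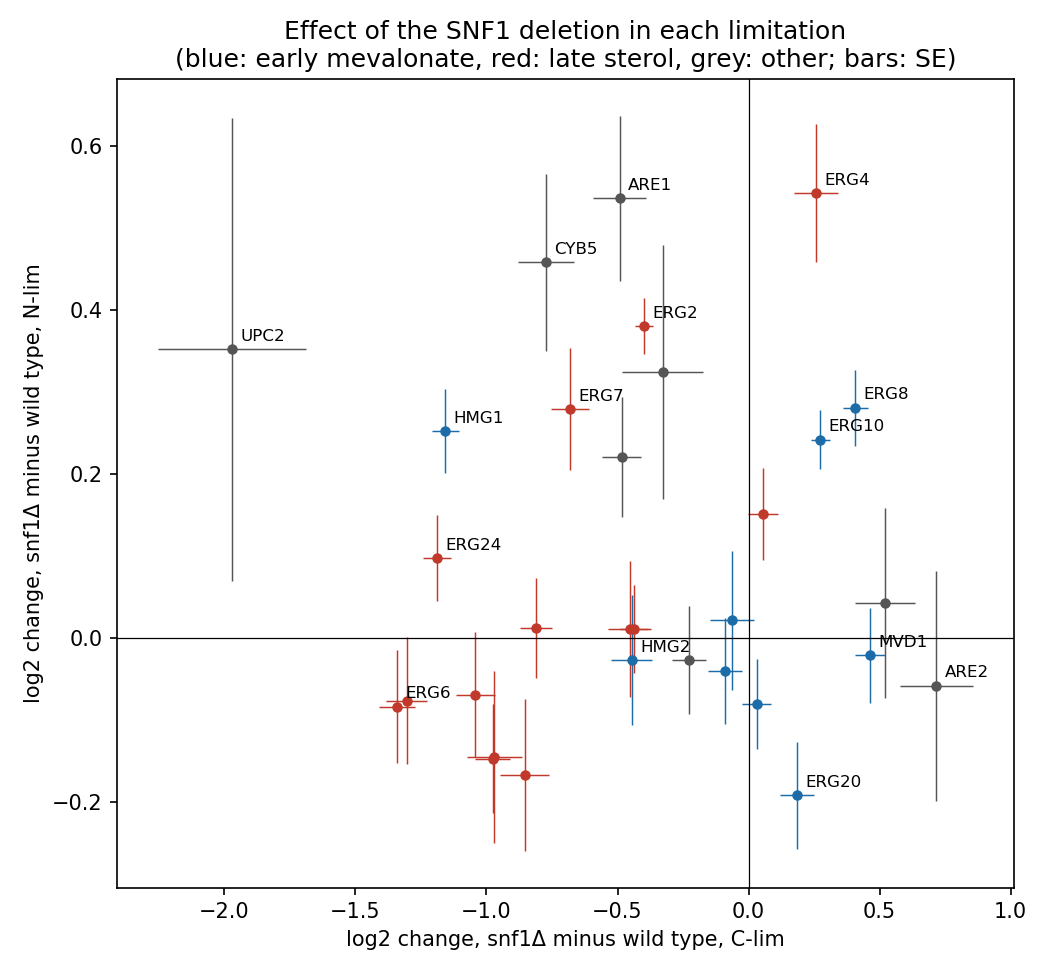
Log2 change of snf1Δ minus wild type under C-lim (x axis) against that under N-lim (y axis) for 31 genes, with standard errors as bars. HES1 is left out, being at the floor in snf1Δ and in wild type under N-lim. The late genes other than ERG4 (0.26) and ERG27 (0.055) spread to the left along the x axis, to -1.34 for ERG6, while the N-lim changes of all 14 stay between -0.17 and 0.54.

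Deleting TOR1 alone left nearly all of these genes without a called change. Under C-lim 2 genes passed, where 1.06% of all genes did. HES1 fell by 0.71 ± 0.084 and ERG24 by 0.33 ± 0.052 (limma adjusted p = 0.000227 and 0.00382). ERG24 had 10.60, 10.61 and 10.46 in tor1Δ and 10.96, 10.76 and 10.96 in wild type. Every tor1Δ array was thus below every wild-type array, as for 3.62% of all genes. At an unadjusted p under 0.05 the count was 10, where 13.8% of all genes passed. Under N-lim 2 genes passed, where 2.92% of all genes did, ERG10 at -0.16 ± 0.036 and ERG24 at -0.20 ± 0.052. The call of ERG24 was lost without any 1 of the 6 arrays compared, and that of ERG10 without wild-type replicates 9 or 11 or tor1Δ replicates 9 or 11.

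In snf1Δtor1Δ the pattern of snf1Δ was seen again. Under C-lim 27 genes passed against wild type, where 61.4% of all genes did, 20 lower and 7 higher, beside 18.8% and 42.7% of all genes (27.7% and 34.6% after median-centring). There 12 of the 14 late genes fell with a median over the 14 of -0.75. ERG6 had 11.16, 11.16 and 11.14 in snf1Δtor1Δ and 12.995, 12.86 and 12.74 in wild type, a change of -1.71 ± 0.069. Under N-lim 13 passed, where 40.3% of all genes did, 11 higher and 2 lower, beside 23.9% and 16.4% of all genes. UPC2 (0.64 ± 0.28) was not among them, and ECM22 was, with 5.81, 5.85 and 5.85 in snf1Δtor1Δ and 5.21, 5.18 and 5.28 in wild type and a change of 0.62 ± 0.15. Set against snf1Δ, 2 genes differed under C-lim, where 17.2% of all genes did. They were ERG6 (-0.37 ± 0.069) and NCP1 (-0.21 ± 0.066), the second of which lost its call without either of snf1Δ replicates 11 and 12 or snf1Δtor1Δ replicates 1 and 2. Under N-lim 0 of the 32 genes differed by limma, where 10.6% of all genes did, and 2, ERG12 and ERG7, had an unadjusted p under 0.05, as did 26.1% of all genes.

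The genetic interaction asks whether the change in snf1Δtor1Δ departs from the sum of the changes in the single deletions. Under C-lim it passed the test for 2 genes, where 5.74% of all genes did, HES1 (0.71 ± 0.12) and ERG24 (0.28 ± 0.074), both positive. For HES1 the value rests on the floor, which both strains without SNF1 had reached. The call of ERG24 was lost when any of 7 single arrays was left out, among them wild-type replicates 9 and 11 and tor1Δ replicate 9, with values between 0.23 and 0.28. Under N-lim 0 genes passed by limma, where 0.697% of all genes did, and 3 had an unadjusted p under 0.05, as did 13.7% of all genes.

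Where the set holds a pair of paralogs, the members of the pair differed. The log2 difference of a pair within an array, taken after setting each gene to its own mean, is free of array-wide shifts. HMG1 minus HMG2 was -0.67 ± 0.053 under N-lim and 0.91 ± 0.074 under C-lim in wild type (mean ± SD, n = 3 each). In snf1Δ it was -0.39 ± 0.054 under N-lim and 0.20 ± 0.11 under C-lim. ARE1 minus ARE2 was -1.24 ± 0.18 under N-lim and 1.42 ± 0.088 under C-lim in wild type. In snf1Δ it was -0.65 ± 0.088 under N-lim and 0.21 ± 0.27 under C-lim. For both pairs the media lay apart in both strains, with the wider gap in wild type. UPC2 minus ECM22 was -0.40 ± 0.44 under N-lim and 1.20 ± 0.95 under C-lim in wild type, with wide SDs. HES1 and KES1 were the most unlike pair, HES1 being above the floor on the C-lim arrays of tor1Δ and wild type and on no others, where KES1 was at its lowest, with 8.51 in tor1Δ and 8.39 in wild type.

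**Figure D5:**
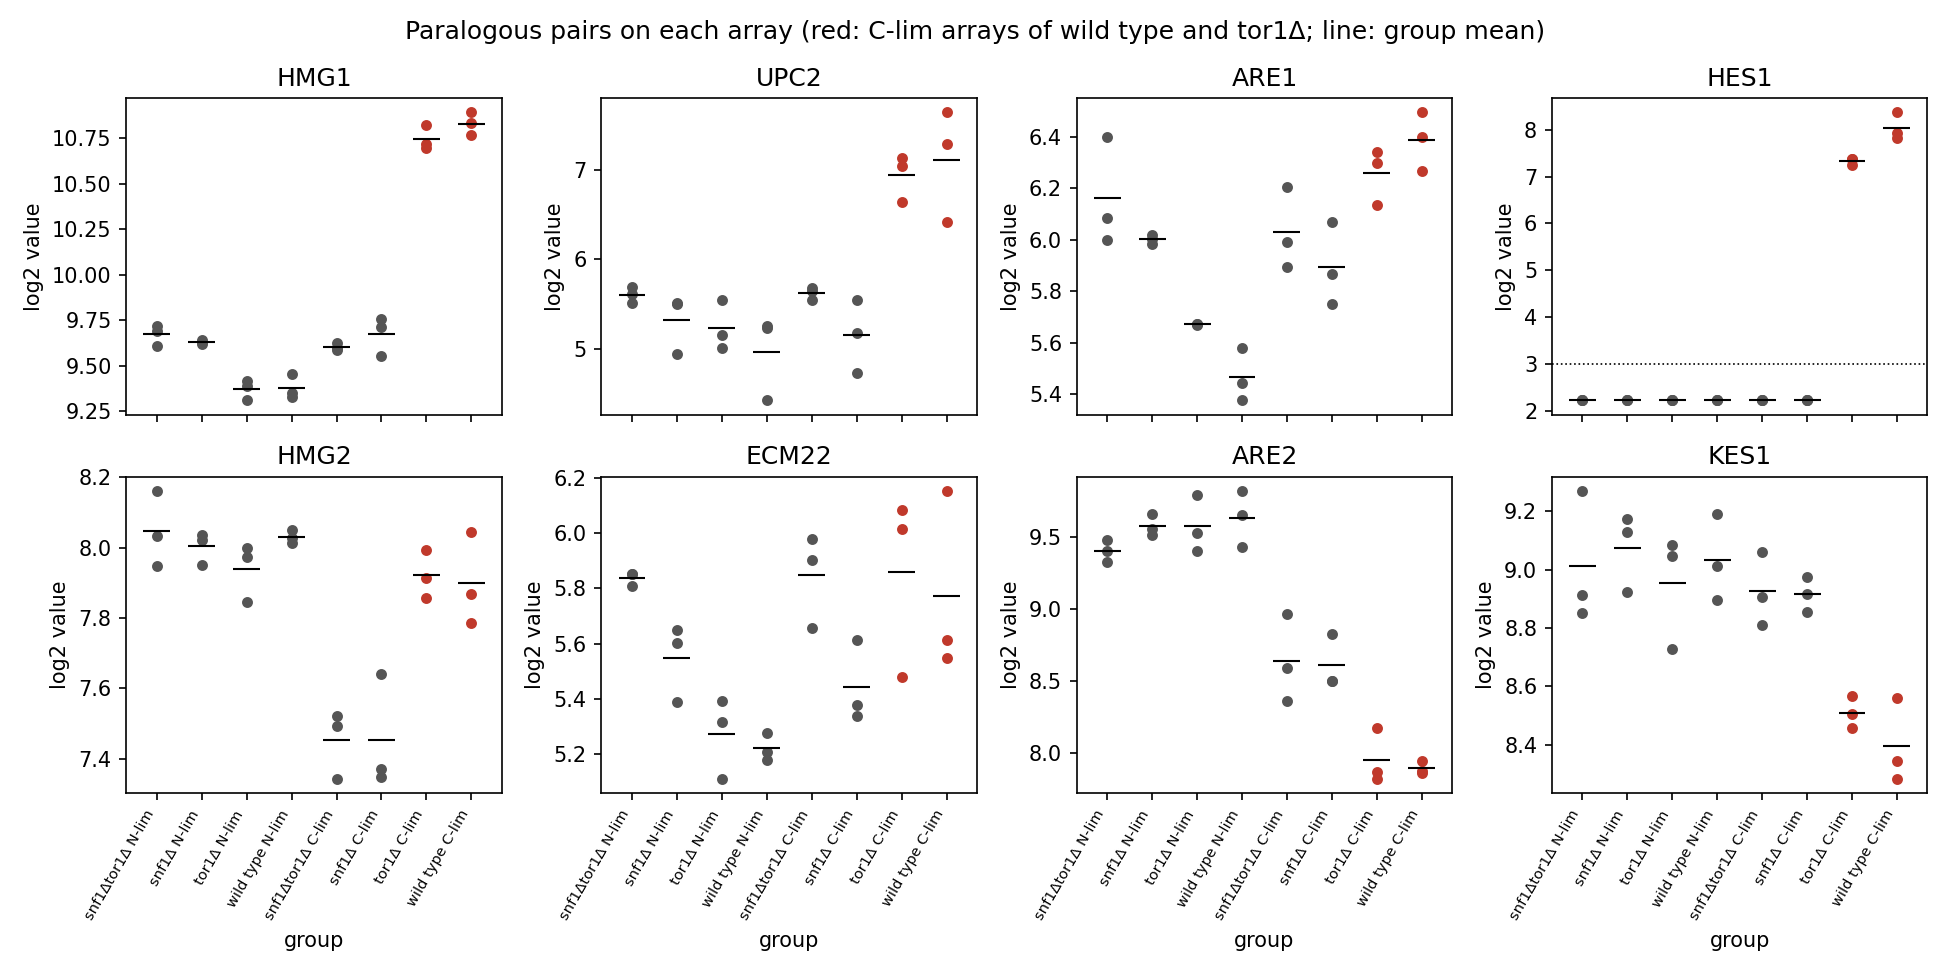
Log2 values of 4 pairs of paralogs (top and bottom row) on each array (points) of the 8 groups (x axis), with group means as lines and the C-lim arrays of tor1Δ and wild type in red. The dotted line marks log2 3, under which HES1 lies on all 18 arrays that are not red, and ARE2 and KES1 are lowest where ARE1, HES1, HMG1 and UPC2 are highest.

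Genes next to the pathway were followed in 7 lists, of which 63 genes were measured. The list of sterol uptake and the cell wall of cells without oxygen held the largest changes of the 7 in wild type, with 9 of 10 genes lower and 1 higher under N-lim, beside 25.7% of all genes lower and 41.5% higher. Its median change was -0.85, beside 0.078 for all genes, and the same shares and median of all genes stand behind the other 6 lists for this comparison. TIR3, TIR4 and TIR1 encode mannoproteins of the wall of anaerobic cells. TIR3 averaged 4.79 ± 0.21 under N-lim and 9.46 ± 0.15 under C-lim, a change of -4.67 ± 0.094. TIR4 changed by -3.60 ± 0.15 and TIR1 by -2.86 ± 0.16, while TIR2 rose by 0.29. SUT1, a regulator of sterol uptake, changed by -1.12, and the sterol transporters PDR11 and AUS1 by -0.60 and -0.37. DAN1, which is among the 9, was at the floor in both media. In snf1Δ the same list held 4 genes lower and 1 higher under N-lim, beside 23% and 32.4% of all genes, with TIR3 at -2.08. TIR4 at -0.011 and TIR1 at -0.30 did not pass the test there. The response of this list differed from that of wild type in 6 of 10 genes in snf1Δ and 8 of 10 in snf1Δtor1Δ, each time more positive, beside 16.2% and 17.9% of all genes.

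Among the regulators of haem and oxygen responses, HAP1 fell under N-lim in wild type. HAP1, a haem-responsive activator known to act on sterol genes, averaged 8.22 ± 0.051 under N-lim and 9.31 ± 0.20 under C-lim in wild type, a change of -1.09 ± 0.078. Under C-lim it averaged 7.72 ± 0.088 in snf1Δ and 9.31 ± 0.20 in wild type, a change of -1.60 ± 0.078, and in snf1Δ the medium changed it by 0.30 ± 0.078. In its list of 10 genes 4 fell and 3 rose in wild type under N-lim, beside 25.7% and 41.5% of all genes and with a median of -0.07, so the number called is near the background. Those that rose included COX5B, the hypoxic form of a cytochrome c oxidase subunit, by 2.45. CYC7 in the same list lay the other way, at 7.43 ± 0.041 under N-lim and 8.36 ± 0.20 under C-lim. ANB1 and AAC3 were at the floor in all 8 groups. Of 8 genes of haem synthesis 5 fell and 1 rose, with a median of -0.33, HEM1, the first step, at -0.77 and the oxygen-dependent HEM13 at -0.66. In snf1Δ under C-lim, 4 of these rose and 2 fell, shares near the 40.5% and 21.6% of all genes. All 7 genes of the list around HMG-CoA reductase and Erg11 changed, 3 lower and 4 higher under N-lim, where 67.2% of all genes changed, and their median was 0.23. DAP1, a haem-binding protein that supports Erg11, changed by -1.38 ± 0.094, and UBC7, which takes part in the breakdown of Hmg2, by 0.69 ± 0.062.

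Of 5 genes of steryl ester hydrolysis and sterol acetylation 2 rose in wild type under N-lim, where 41.5% of all genes rose, with a median of 0.18. The genes that rose were the hydrolases YEH2 (0.71) and TGL1 (0.52). In snf1Δ all 5 rose, where 32.4% of all genes did, with a median of 0.58. ATF2, which acetylates sterols, averaged 4.25 ± 0.25 in snf1Δ and 5.29 ± 0.32 in wild type under C-lim, a change of -1.04 ± 0.16. Of 15 sterol transport proteins 6 were higher and 3 lower in wild type under N-lim, near the 41.5% and 25.7% of all genes, with a median of 0.10. PRY1, a secreted sterol-binding protein, rose by 0.94, and YSP2, a sterol carrier at membrane contacts, by 0.93 under N-lim and by 1.01 in snf1Δ against wild type under C-lim. LAM5, of the same family as YSP2, fell by 0.80 under N-lim. Of 8 genes on isoprenoid branches 3 rose and 1 fell in wild type under N-lim, no more than the 41.5% and 25.7% of all genes, with a median of 0.14. The highest change was that of MOD5, which isopentenylates tRNA, at 1.36 ± 0.10. Under C-lim 5 of the 8 were higher in snf1Δ than in wild type, beside 40.5% of all genes.

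Marker lists of mating type moved with the groups. All 7 a-specific genes were higher under N-lim in wild type, where 41.5% of all genes were, and their mean relative to each gene's 24-array mean ran between 1.02 and 1.11 under N-lim and between -1.89 and -1.85 under C-lim. Under C-lim it ran between -0.18 and -0.063 in snf1Δ. In snf1Δtor1Δ, snf1Δ and tor1Δ under N-lim this mean lay between 0.69 and 0.997, and under C-lim between 0.025 and 0.19 in snf1Δtor1Δ and between -1.70 and -1.62 in tor1Δ. Of 4 alpha-specific genes 3 were higher and 1 lower under N-lim in wild type. MF(ALPHA)2, which is among the 3, was at the floor in both media. The mean of the 4 lay between 1.09 and 1.25 under N-lim and between -0.97 and -0.77 under C-lim. This mean largely follows MF(ALPHA)1, which changed by 7.36, while the median change of the 4 was 0.70. The gene that was lower was STE3, at -0.58. None of these genes is in the sterol set, and the part of this difference between cultures in the sterol results was not tested.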

How the data were processed

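The deposited table holds log2 values, which the authors made by RMA (affy), as the submitters' processing notes record. Versions, and which arrays were normalized together, were not given in the sources used here. Per the labels' protocols, RNA was extracted from frozen cells with a Qiagen kit and labelled with biotin. The platform table names 1 gene for 5498 of the 5716 probe sets and none for 218. Keeping the brightest for 47 genes with several left 5449 genes, of which 12 took their current RefSeq symbol. Of the related genes 1 is listed under 2 names and was counted once.

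A model of 8 group means was fitted to all 24 arrays with limma 3.58.1 (R 4.3.3), with 16 residual and 1.71 prior degrees of freedom. From this fit 17 comparisons were drawn, with Benjamini-Hochberg adjustment over all genes and a threshold of 0.05. A fold against a group under log2 3 is computed against log2 3 and given as at least that fold. The number of arrays limits the precision. Any member could be named, and of a related list up to 4 genes with the largest called change, all of a count up to 5, or genes at the floor. The members and lists were chosen with earlier results of these data known.

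Titles number the arrays of a group. Arrays of equal number had a correlation of deviations over 0.1 in 22 of 33 pairs (median 0.20). This held in every pair for 3 of the comparisons whose groups share all 3 numbers. They were N-lim against C-lim in wild type and in snf1Δtor1Δ, and snf1Δ against wild type under N-lim. The C-lim arrays of tor1Δ shared only number 9 with wild-type C-lim (0.44) and with tor1Δ N-lim (0.20). Equal-number pairs ran from -0.30 to 0.44, and every pair with a snf1Δ C-lim array was negative. The 219 pairs of unequal number ran from -0.48 to 0.54 (median -0.042), so equal numbers need not mark paired cultures. Alternatives were median-centring, renewed quantile normalization, no dim genes, a trended robust prior, the mean of probe sets, the median of members, a replicate block and leaving out each array.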

Additional observations from a re-analysis of the deposited data

Results flagged for a closer look

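No group had enough arrays for a search for single values far from the rest, since each held 3. Flagged instead were effects that differed between groups by the test of the difference itself. The genetic interaction of the 2 deletions passed limma's test for 2 of the 32 genes under C-lim, where 5.74% of all genes did. Under N-lim it passed for 0, where 0.697% of all genes did, and both counts are near the background. The change with the medium differed from that of wild type for 26 genes in snf1Δtor1Δ, 24 in snf1Δ and 1 in tor1Δ. The shares of all genes were 46.7%, 47.2% and 0.973% in the same order.

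For some genes both effects being compared passed the test with opposite signs, a choice under which their difference passes almost by construction. In snf1Δ these were HMG1, whose change against wild type was higher under N-lim than under C-lim by 1.41, ERG7 (0.96), ERG2 (0.78), CYB5 (1.23), ERG29 (0.71) and ARE1 (1.03), all on the log2 scale. ERG20 went the other way at -0.38. In snf1Δtor1Δ the genes were HMG1 (1.52), ERG7 (1.13), ERG2 (0.77), CYB5 (1.23), ERG29 (0.63) and ARE1 (1.05). The N-lim calls of CYB5 and ERG29 against wild type were lost without wild-type replicates 9 or 11 or snf1Δtor1Δ replicates 2 or 3. Median-centring also removed both calls. Both strains are set against the same wild-type arrays.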

How the results depend on the processing

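Of the 217 calls of a gene in a comparison, 21 were lost under at least 1 alternative other than leaving out an array and 29 without at least 1 array. Of the others 14 and 17 were gained in these ways, and no call changed sign. The counts of the 4 comparisons of media, of snf1Δ and of snf1Δtor1Δ against wild type, and of their responses stayed within 1.5 times under every alternative run. Small counts moved. For tor1Δ against wild type under C-lim the count was 1 without dim genes. Under N-lim it was 0 after median-centring, 1 after quantile normalization, 0 without dim genes, 1 with a trended robust prior, and 0 to 1 when single arrays were left out. Between snf1Δtor1Δ and snf1Δ it was 4 under C-lim after quantile normalization, and 1 to 3 under C-lim and 0 to 1 under N-lim without single arrays. The genetic interaction under C-lim counted 1 gene without dim genes and 1 to 3 without single arrays, and the response of tor1Δ counted 0 without dim genes. Leaving out dim genes removed 1362 genes, 4 of them members. The median over members in place of the mean gave an early minus late change of 0.66 for the media in wild type and -0.19 in snf1Δtor1Δ, of 0.95, 0.84 and 0.16 for snf1Δtor1Δ, snf1Δ and tor1Δ against wild type under C-lim, and of 0.10 and 0.098 for the first 2 under N-lim. Those medians use values relative to each gene's mean, a choice made after the values were seen, and elsewhere the cause of a move was not tested. The replicate block changed no count by over 1.5 times: as a fixed term, added after seeing the data, it gave 24 and 12 genes for the media in wild type and snf1Δtor1Δ and 14 for snf1Δ under N-lim. With 3 arrays a group and small changes, calls near the threshold depend on single arrays.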

Other observations

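UPC2 varied among arrays of 1 group more than any other member. Its value was the lowest of the group on the arrays numbered 10 of snf1Δ, tor1Δ and wild type under N-lim and of wild type under C-lim, and the highest on the array numbered 10 of snf1Δ under C-lim (5.54). In wild type the array numbered 10 had 4.42 under N-lim and 6.42 under C-lim.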
